A study of Homo sapiens with 131 samples.

Results

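The RAN cycle and its nuclear transport receptors were followed across single human cells caught in the middle of S phase, with RNA and DNA copy number read from every cell. The 9 genes were taken by symbol from the 60708 genes of the expression table: the GTPase RAN, its exchange factor RCC1, its hydrolysis partners RANGAP1 and RANBP1, the importins KPNB1, KPNA2 and TNPO1, and the exporters XPO1 and CSE1L. They were chosen by function and with the measured RNA level and copy state of RAN in these cells already known. All 9 had an RNA level, and 8 had a copy state. The exception was RCC1, which lies on chromosome 1, and chromosomes 1, 15 and X were left out of the state tables. The cells were HAP1, a near-haploid human leukaemia-derived line, untreated and sorted by DNA content as mid-S, so that an unreplicated gene is present in 1 copy and a replicated gene in 2 copies.

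RAN is a small GTPase that sets the direction of traffic through nuclear pores. RCC1 sits on chromatin and loads RAN with GTP in the nucleus, while RANGAP1, helped by RANBP1, triggers hydrolysis in the cytoplasm. RAN-GTP makes importins release their cargo and makes exporters bind theirs, and in mitosis the same GTPase frees spindle assembly factors from importins near chromosomes.

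Of 63 mid-S cells in the labels, 56 had both an RNA and a DNA column in the tables, and the other 7 were not analysed here. All came from 1 biological experiment, so each p-value below measures the spread between single cells and not between cultures. The replication score, the percentage of called 40-kb bins at 2 copies, had a median of 54.1% and spanned 39.7 to 67.2%, and 55 cells lay between 40 and 70%. Cells numbered above 65 (27 cells, called the later library set here) had a mitochondrial share of TPM of 2.57 to 5.55%, against 4.98 to 18.3% in cells numbered up to 65 (29 cells, the first library set). The labels give no batch, and this split was found from the values in earlier work, so it is no group of the study. Unspliced totals had a median of 568578 in the later set and 812254 in the first, with a highest cell at 1.35e+06. The study's methods state that RNA reads were reduced to 1 fixed library size per cell, and whether the unspliced table was made from reduced reads is not known. Mean scores were 56.4% in the later set and 50.7% in the first. The proliferation genes PCNA, MKI67, TOP2A, TYMS and RRM2 were above 0 in 56 of 56 cells. BCR and ABL1, whose fusion HAP1 carries, were above 0 in 53 and 49 cells. Of the markers of other cell types, CD3E was 0 in every cell, and PTPRC, ALB and COL1A2 were above 0 in 1, 2 and 4 cells. The 1 cell with PTPRC stood at 58.65 TPM. COL1A1 was above 0 in 29 cells, with a median of 0.74 and a highest of 33.89 TPM.

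The promoters of RAN, CSE1L and KPNA2 are shown because these 3 genes had the lowest p-values against the replication score described further on, and because all 3 windows hold the hexamer TTTGAA. That hexamer is the core of the CHR element, known from genes of the late cell cycle. Each window runs from 250 bases before to 50 bases after the RefSeq start in GRCh38.p14 and is written along the strand of the gene. Capitals mark TTTGAA, the E-box CACGTG and the CCAAT box, each searched on both strands.
RAN, chr12:130871816-130872115, plus strand: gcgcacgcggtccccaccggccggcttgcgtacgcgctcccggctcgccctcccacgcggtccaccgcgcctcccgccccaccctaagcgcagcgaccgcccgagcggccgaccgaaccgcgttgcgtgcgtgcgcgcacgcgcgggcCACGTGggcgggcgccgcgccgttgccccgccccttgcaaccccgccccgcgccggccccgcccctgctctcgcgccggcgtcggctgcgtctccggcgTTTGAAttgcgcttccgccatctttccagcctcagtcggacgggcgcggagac
CSE1L, chr20:49046062-49046361, plus strand: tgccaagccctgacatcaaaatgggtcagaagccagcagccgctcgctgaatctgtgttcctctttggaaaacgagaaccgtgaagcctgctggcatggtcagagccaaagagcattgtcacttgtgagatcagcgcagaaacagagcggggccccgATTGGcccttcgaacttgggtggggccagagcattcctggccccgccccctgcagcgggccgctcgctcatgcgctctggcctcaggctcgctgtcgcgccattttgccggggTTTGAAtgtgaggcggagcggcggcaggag
KPNA2, chr17:68035485-68035784, plus strand: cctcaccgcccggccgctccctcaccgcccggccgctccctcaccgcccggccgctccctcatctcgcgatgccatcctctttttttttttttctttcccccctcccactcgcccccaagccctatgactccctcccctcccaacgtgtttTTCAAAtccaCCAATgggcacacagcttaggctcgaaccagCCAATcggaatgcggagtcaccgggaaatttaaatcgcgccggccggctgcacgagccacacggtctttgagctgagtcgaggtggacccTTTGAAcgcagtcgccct

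The KPNA2 window held TTTGAA at 2 places and CCAAT at 2 places. The CSE1L window held each of these at 1 place. The RAN window held TTTGAA and the E-box at 1 place each, with no CCAAT. Among all 35116 promoter windows of the same length, 15.2% held TTTGAA, 34.6% held CCAAT and 7.26% held CACGTG. Sequences were found for 7 of the 9 genes, in 11 windows, and 1 of the windows of RANGAP1 also held TTTGAA, while those of RCC1, XPO1 and TNPO1 did not. RANBP1 and KPNB1 had no entry. The motifs were chosen after the sequences had been seen, and a match is a description and not a binding site.

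In TPM, RAN was by far the highest of the 9. Its level had a median of 1664 TPM (a length-corrected share of all transcripts of the cell), with a lowest cell at 882 and a highest at 3086 TPM, which placed it 68th of 60708 genes by median. The export receptor XPO1, which carries proteins with leucine-rich signals out of the nucleus, followed at 480 TPM, and RAN was above XPO1 in 56 of 56 cells. RANBP1 had a median of 420 TPM, and its order relative to XPO1 was not stable between cells, with XPO1 higher in 35 of 56 cells. The split followed the library sets, XPO1 being the higher in 12 of 27 later cells and in 23 of 29 first cells.

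The import carriers came next. KPNB1, importin beta, had a median of 308 TPM, and KPNA2, an importin alpha that links KPNB1 to cargo, had 272 TPM. KPNB1 was above KPNA2 in 30 of 56 cells, so these neighbours did not differ beyond the spread between cells. CSE1L, the exporter that returns importin alpha to the cytoplasm, had 201 TPM and lay below KPNA2 in 43 cells. TNPO1, the importer of several RNA-binding proteins, had 99.8 TPM. The lowest levels belonged to the enzymes that act on RAN's nucleotide: RCC1 at 57.1 TPM and RANGAP1 at 36.5 TPM, RCC1 being the higher in 47 of 56 cells. The median of RAN was 3.47 times that of XPO1, and all 9 genes were above 0 in every cell. The length that divided TPM is not stated. Annotated exons (GENCODE v44) span 4667 bases in RAN and 23843 in XPO1. The order of levels may depend on that length, and its part was not tested.

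**Figure D1:**
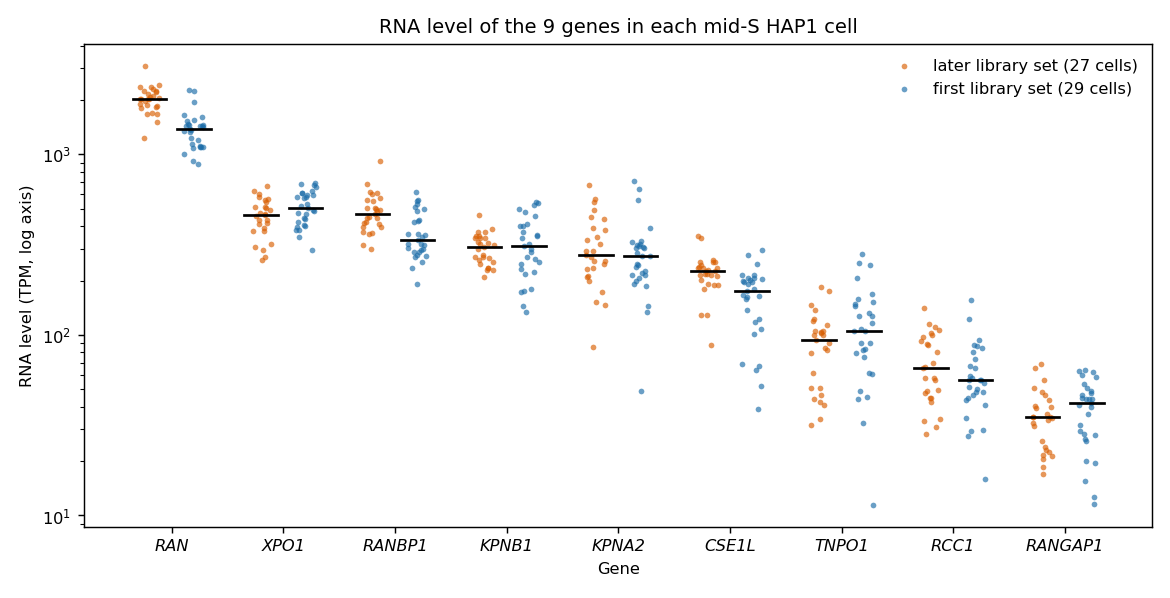
RNA level of the 9 genes in TPM on a log axis, 1 point per cell, with the 27 later cells left of the 29 first cells for each gene and a black bar at each median. RAN lies above the other 8 genes in every cell, and its later cells (median 2025 TPM) lie mostly above its first cells (median 1373 TPM).

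The 9 genes were steady for single-cell data. The coefficient of variation over the 56 cells was lowest for XPO1 at 23.2% and RAN at 27.7%. KPNB1 had 30.7%, RANBP1 31.04%, CSE1L 34.95%, RANGAP1 38.9%, RCC1 45.5%, KPNA2 46.5% and TNPO1 54.4%. The median over 8914 genes with a median of at least 10 TPM was 67.0%, which lies above all 9 values. Only 0.12% of those genes varied less than XPO1 and 0.88% less than RAN. Coefficients fall with abundance in such data, and these genes are abundant, so the comparison is a description. Within sets RAN had 17.2% in later cells and 24.2% in first cells.

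Some rows share sequence or position with these genes. RCC1 overlaps the small nucleolar RNA host gene SNHG3 on the same strand, and SNHG3 had a median of 112.7 TPM, above that of RCC1 itself. RANBP1 overlaps TRMT2A on the opposite strand (42.0 TPM). The counting is not stated to use strand for these tables, so reads shared by RANBP1 and TRMT2A cannot be told apart, and strand would not separate RCC1 from SNHG3. The levels of RCC1 and RANBP1 are therefore uncertain. RAN has 9 pseudogene rows, all with a median of 0, and the row KPNA2P3 had a median of 6.88 TPM against 272 TPM for KPNA2.

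Unspliced RNA, the gene-body reads left after exon reads are subtracted, was scarce for RAN, XPO1 and KPNA2. XPO1 was listed at 0 in 56 of 56 cells and RAN in 55, with a count of 16 in the remaining cell. KPNA2 was above 0 in 12 cells. RANGAP1, the lowest of the 9 in spliced RNA, was above 0 in 52 cells with a median of 24.4 counts. KPNB1 had a median of 16, CSE1L 9.77, RANBP1 5.75 and TNPO1 4.39 counts, with 46, 51, 40 and 43 cells above 0. The authors set negative differences to 0, so a listed 0 does not show that no unspliced RNA was present. Annotated exons cover 4667 of the 5642 bases of RAN, 7365 of 11729 in KPNA2 and 23843 of 62710 in XPO1. They cover 4620 of 11418 bases in RANBP1, 6136 of 41409 in RANGAP1 and 3800 of 50715 in CSE1L. Little intron sequence was thus left to count in RAN, and the part of exon cover in the listed zeros was not tested. Across cells, the spliced and unspliced values of a gene were weakly related, with Spearman's rho between -0.06 (KPNA2) and 0.24 (RANGAP1) over 56 cells.

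The RAN gene was unreplicated in most of these cells. It was at 2 copies in 14 cells and at 1 copy in 41 of the 55 cells between 40 and 70%, or 25.5% replicated. Of the genes expressed in more than 50% of cells, 71.5% fell in the early-S class, 20.8% in the mid-S class and 7.72% in the late-S class. The boundaries used here were over 77.8% of called cells at 2 copies for early and up to 22.2% for late. By these boundaries RAN fell in the mid-S class, close to the late boundary. The study instead divided the range of its average mid-S replication timing values, so its class for RAN may differ. Its position and its level were known from earlier results of these data and are given as description.

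The other 7 genes with a state replicated early. XPO1, KPNB1 and RANGAP1 were at 2 copies in 55 of 55 cells, and KPNA2 in 53 of 53 called cells. CSE1L was at 2 copies in 54 cells and at 1 copy in 1. RANBP1 was at 2 copies in 45 cells, at 1 copy in 6 and without a call in 4 (88.2%). TNPO1, at 43 against 12 cells (78.2%), lay just above the early boundary. The 9 genes lie on 7 chromosomes by the tables' hg38 coordinates, RAN at chr12:130872037-130877678 and TNPO1 at chr5:72816312-72916733. KPNB1 (chr17:47649476-47685505) and KPNA2 (chr17:68035636-68047364) share chromosome 17, and RANBP1 (chr22:20115938-20127355) and RANGAP1 (chr22:41244779-41286187) share chromosome 22.

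RAN stands between late and early DNA. In the 40-kb bins centred within 1 Mb of its start, the share of cells at 2 copies ran from 0% in the 3 farthest upstream bins to 98.1% in the farthest downstream bin. The bin over RAN itself and the next downstream bins stood at 25.5%, and the first bin at 50% was centred 348 kb downstream. Upstream the share did not fall evenly, with 3.77% in the bin centred at -452 kb and 24.5% in the bin centred at -692 kb. TNPO1 lay on a gentler slope in the other direction, with 81.8% in the bin centred 3.69 kb past its start and 70.9% in the bin centred 83.7 kb past it, all within the gene. Within 500 kb of their starts, bins ranged from 3.77 to 65.5% for RAN and from 69.1 to 89.1% for TNPO1. For XPO1 and KPNB1 they ranged from 96.4 to 100%, and for RANGAP1 from 98.2 to 100%. KPNA2 and CSE1L were replicated in nearly all cells but lay near later DNA, since within 1 Mb of their starts single bins stood at 23.6% and 49.1%.

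**Figure D2:**
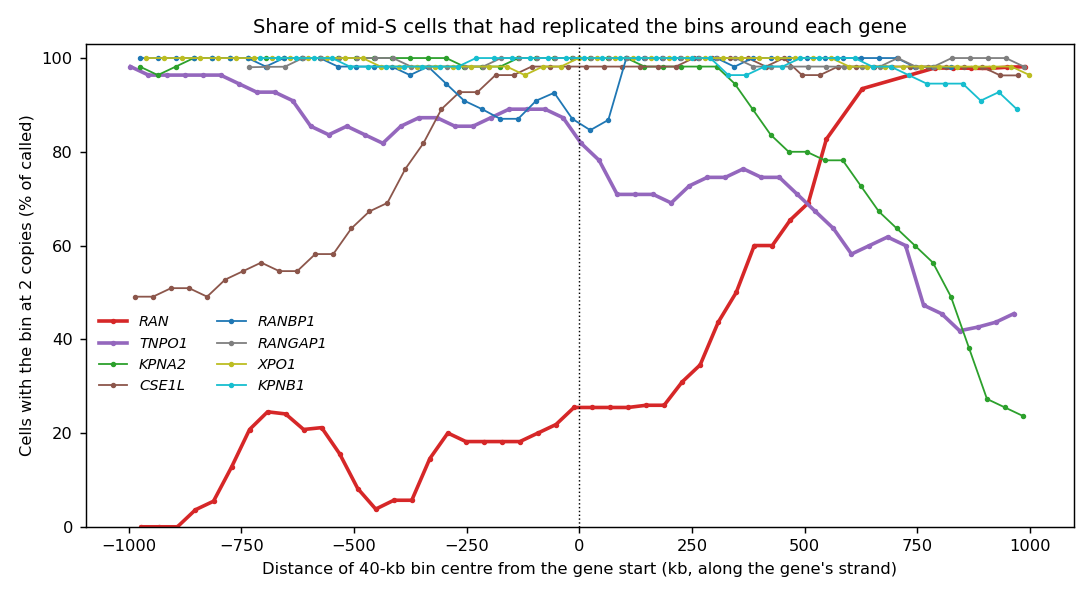
Percentage of called cells with each 40-kb bin at 2 copies (vertical axis) against the distance of the bin centre from the gene start in kb, along the strand of the gene, for the 8 genes with a state and 55 cells. RAN goes from 25.5% at its start to 98.1% at the downstream edge, and XPO1, KPNB1 and RANGAP1 stay near 100% within 500 kb.

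The design asks whether a replicated gene is expressed more highly than an unreplicated copy, and RAN and TNPO1 were the genes of the 9 with enough cells in both states. For RAN, 2-copy cells had a lowest level of 882, a median of 1956 and a highest of 3086 TPM. The 1-copy cells had 918, 1611 and 2425 TPM. The ranges overlapped almost entirely, and 2-copy cells exceeded 1-copy cells, on log2(TPM + 1), by a mean of 0.17 ± 0.14 (SE, 14 against 41 cells), a 1.12-fold difference with a 95% interval of 0.929 to 1.36-fold. The two-sided Wilcoxon rank-sum test gave an adjusted p of 0.724 over 2431 genes, none of which passed 0.05 (0% called, lowest adjusted p 0.232). At an unadjusted p under 0.05 stood 205 genes, or 8.43% (5.84% higher and 2.59% lower in 2-copy cells), and RAN was not among them (p = 0.150). A full doubling of the spliced TPM of RAN, a share of all transcripts, lay outside the interval. Unspliced RAN had too few counts for a test.

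The comparison was also made within each library set. Among later cells RAN had a median of 2181 TPM in the 8 cells at 2 copies and 2016 TPM in the 19 cells at 1 copy (log2 difference 0.22 ± 0.10, exact permutation p = 0.0448, two-sided). Among first cells it had 1412 TPM in 6 cells at 2 copies and 1398 TPM in 22 cells at 1 copy (-0.02 ± 0.18, exact permutation p = 0.935). Without the highest cell, at 3086 TPM, the later difference was 0.15 ± 0.07 with an exact permutation p of 0.107. Neither p was adjusted over genes, and the difference between the sets was not tested. The 2-copy cells were further on in S phase than the 1-copy cells, with median scores of 56.03% and 51.4%.

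For TNPO1 the groups overlapped fully. The 43 cells at 2 copies ran from 11.4 to 280 TPM around a median of 102.5 TPM, and the 12 cells at 1 copy from 34.4 to 158 TPM around 91.8 TPM. The log2 difference was 0.03 ± 0.23, with a 95% interval from 0.747 to 1.40-fold (adjusted p = 0.958, Wilcoxon). Within later cells it was 0.14 ± 0.33 (exact permutation p = 0.755) and within first cells -0.09 ± 0.32 (exact permutation p of 1). Unspliced TNPO1 counts had medians of 6.20 in 2-copy cells and 1.00 in 1-copy cells. The gene was above 0 in 34 of 43 and in 8 of 12 cells, and did not pass the test (log2 difference 0.91 ± 0.86, adjusted p = 0.90 over 3118 genes). None of the 3118 genes passed (0% called), and 6.77% stood at an unadjusted p under 0.05 (3.78% higher and 2.98% lower in 2-copy cells). RAN had too few unspliced counts for that test. RANBP1 had 421 TPM in its 45 cells at 2 copies and 449 TPM in its 6 cells at 1 copy, too few for the main selection.

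**Figure D3:**
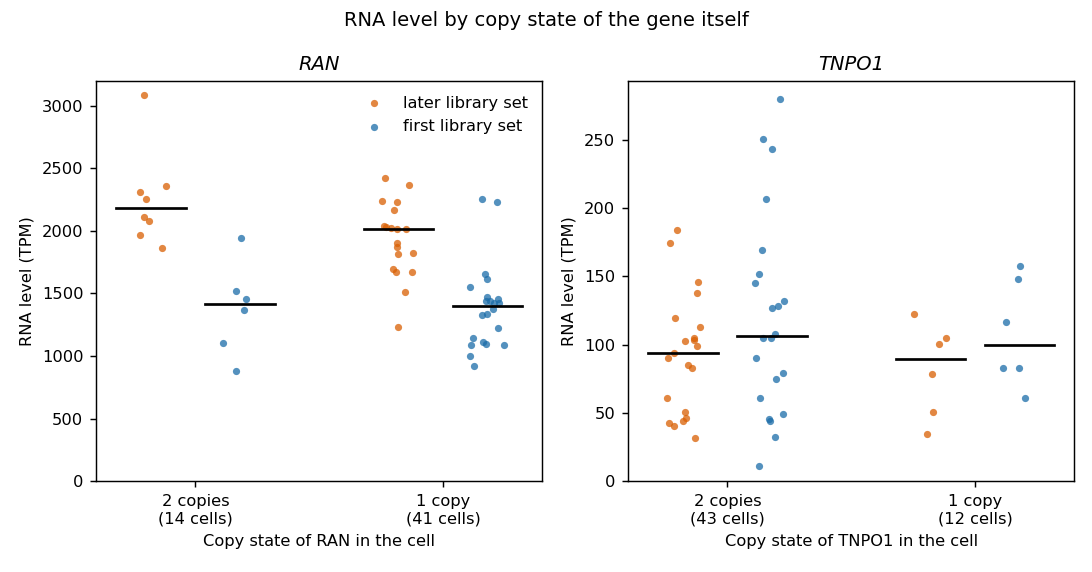
RNA level in TPM of RAN (left) and TNPO1 (right) in cells with the gene at 2 copies and at 1 copy, 1 point per cell between 40 and 70% replicated, with later cells left of first cells in each state and a black bar at each median. The states overlap within each set, and 1 later cell at 2 copies lies apart at 3086 TPM for RAN.

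In the wider pathway, 4 more genes were split enough for the spliced test. RANBP2, the giant nucleoporin on the cytoplasmic face of the pore that binds RAN-GTP, had a median of 55.7 TPM in its 27 cells at 2 copies and 36.8 TPM in its 28 cells at 1 copy. Its log2 difference was 0.62 ± 0.21, in the same direction in later cells (50.7 and 37.7 TPM) and in first cells (58.3 and 30.8 TPM). Its unadjusted Wilcoxon p was 0.00065 but its adjusted p was 0.293, so it did not pass, and it is named here after its value was seen. Unspliced RANBP2 had medians of 8.00 and 7.92 counts in these cells. RANBP2 has near-identical copies, and of 8 rows named RGPD the highest had a median of 39.8 TPM, so reads may be divided between them. The importers IPO11 and TNPO2 and the spindle factor HMMR had adjusted p-values of 0.897, 0.798 and 0.974.

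KPNA2 and CSE1L had the largest slopes on the replication score, though neither passed the test over all genes. In the 14 cells with the highest scores (58.5 to 67.2%), KPNA2 had a median of 358 TPM and a range of 232 to 708 TPM. In the 14 cells with the lowest scores (39.7 to 47.2%) it had a median of 227 TPM and a range of 48.7 to 559 TPM. The ranges overlapped, though 10 of the 14 high-score cells belonged to the later set and 3 of the 14 low-score cells did. A slope of 0.40 ± 0.10 on the log2(TPM + 1) scale per 10 points of score (limma) was a 1.32-fold difference. Spearman's rho over 56 cells was 0.45 (Pearson's r 0.47), and 0.56 (0.57) once the 2 cells most distant from the median score were dropped. It was 0.70 within later cells and 0.27 within first cells.

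The generalized additive model of the score gave KPNA2 an adjusted p of 0.25 over 17132 genes, so it did not pass. Only 7 of those genes passed (0.0409% called, 0.0117% higher and 0.0292% lower), while 1779 (10.4%) had an unadjusted p under 0.05. With those 2 cells dropped, KPNA2 passed at an adjusted p of 0.0227. The slopes of the 2 sets differed by 0.35 ± 0.22 for KPNA2, and this difference did not pass in the limma interaction test (adjusted p = 1.00, none of 13542 genes called, 0%, and 4.70% at an unadjusted p under 0.05).

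CSE1L had a median of 227 TPM in the 14 cells with the highest scores and 185 TPM in the 14 with the lowest, with a limma slope of 0.33 ± 0.10 and an adjusted p of 0.289 in the additive model. Its rho was 0.40 over all cells, but 0.20 within later and 0.23 within first cells. With the set mean removed, CSE1L also had a rho of -0.50 with the mitochondrial share and of -0.53 with the unspliced total, larger in size than for any other of the 9 genes, and their part in its values was not tested. RAN had a slope of 0.14 ± 0.07 (unadjusted p = 0.040, adjusted p = 0.454, additive model), and its rho was 0.27 over all cells, -0.03 in later and 0.13 in first cells. With the library set as a term, the slope of RAN was 0.01. RANBP1 had a slope of 0.14 ± 0.08, or 0.052 with the set as a term, and KPNB1 of -0.13 ± 0.08. RCC1, RANGAP1, XPO1 and TNPO1 had slopes between -0.07 and 0.06. In all, 3 of the 9 genes had an unadjusted p under 0.05 and none an adjusted one.

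**Figure D4:**
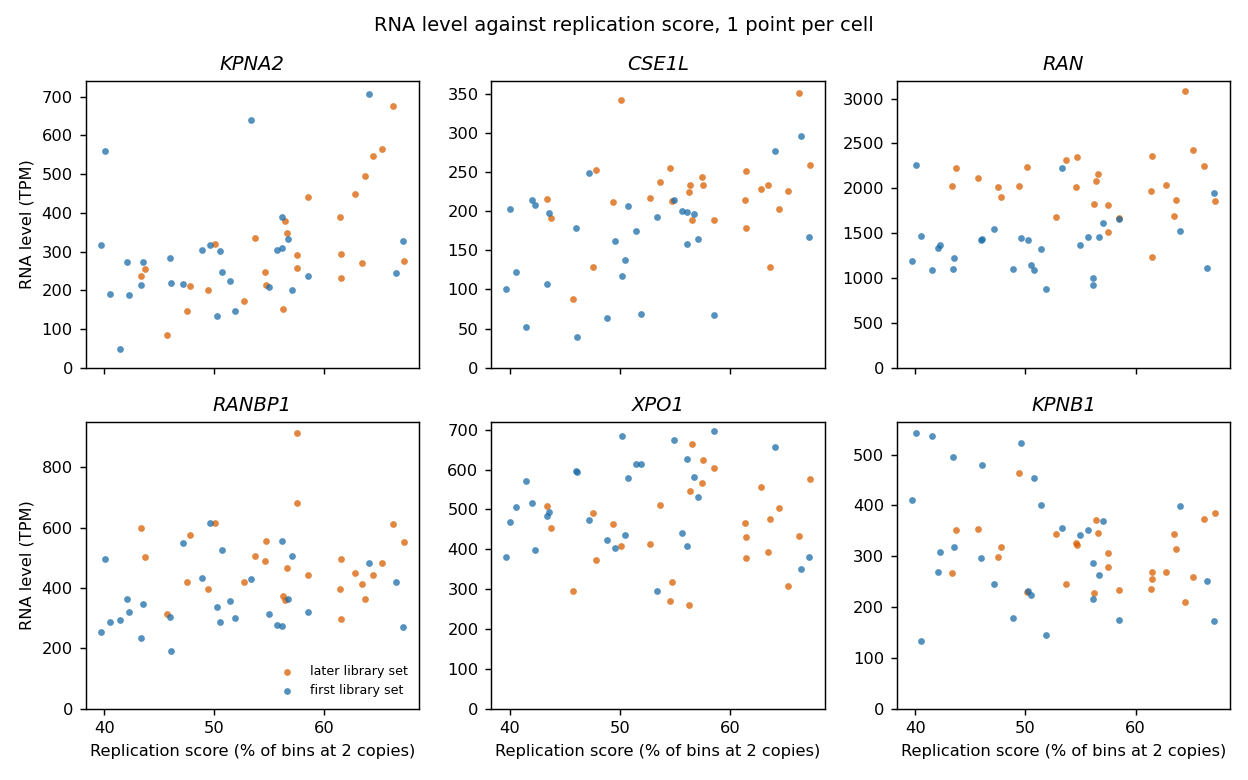
RNA level in TPM against replication score in percent for 6 of the genes, 1 point per cell, later and first library sets in different colours. KPNA2 has the highest coefficient of the 9 genes (rho 0.45 over 56 cells, 0.70 in later and 0.27 in first cells).

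In unspliced RNA none of the 5 genes that passed the count filter was called against the score (edgeR quasi-likelihood test, adjusted p of at least 0.995). Of 7206 genes tested, 7 passed (0.0971%, 0.0416% higher and 0.0555% lower) and 432 (6.00%) had an unadjusted p under 0.05. Slopes per 10 points were 0.05 ± 0.38 for CSE1L, -0.02 ± 0.29 for RANGAP1, -0.03 ± 0.39 for RANBP1, -0.15 ± 0.42 for KPNB1 and -0.18 ± 0.57 for TNPO1. Each error was larger than its slope.

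The differences that passed a test among the 9 followed the library sets. RAN had a median of 2025 TPM (1234 to 3086) in later cells and 1373 TPM (882 to 2256) in first cells. Later cells exceeded first cells by 0.57 ± 0.08 in log2(TPM + 1), a 1.48-fold rise (limma, adjusted p = 1.22e-07), and 26 of 27 later cells lay above the median of the first cells. RANBP1 had 467 TPM in later and 337 TPM in first cells (0.41 ± 0.11, adjusted p = 0.00674). CSE1L had 225 TPM in later and 175 TPM in first cells (0.53 ± 0.16, adjusted p = 0.0214), and this call was lost with the score as a term (0.40, adjusted p = 0.126) and when every gene above 0 was tested (0.53, adjusted p = 0.0597). Thus 3 of the 9 genes rose and none fell, where 6.00% of 13542 genes rose and 4.92% fell (10.9% called in all). Under each of 3 of the 4 alternatives run, 2 of the 9 were called. With TPM rescaled without mitochondrial genes these were RAN as higher and XPO1 as lower in later cells.

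The remaining 6 genes did not pass. XPO1 had a difference of -0.18 ± 0.10, TNPO1 of -0.26 ± 0.22, RANGAP1 of -0.09 ± 0.20, KPNB1 of -0.01 ± 0.12, KPNA2 of 0.14 ± 0.18 and RCC1 of 0.22 ± 0.19. The calls of CSE1L and RANBP1 depended on scaling: with TPM rescaled without mitochondrial genes CSE1L had 0.41 (adjusted p = 0.0704) and RANBP1 0.30 (adjusted p = 0.0532), while RAN stayed called at 0.45 (adjusted p = 2.15e-05) and XPO1 passed as lower in later cells (-0.30, adjusted p = 0.0409). Since score, mitochondrial share and unspliced total also differed between the sets, what separates the sets cannot be told apart from these data. In unspliced RNA none of 5 genes passed (4.10% of 4825 genes called, 3.03% higher and 1.08% lower in later cells). RANGAP1 was lowest in p, at a difference of -0.98 ± 0.49 (edgeR, adjusted p = 0.307).

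The other transport genes had lower median TPM than RAN in every list. Of 5 RAN regulators and cofactors the highest was NUTF2, the carrier that returns RAN-GDP to the nucleus, at 214 TPM, and it rose by 0.44 ± 0.11 in later cells against first cells (adjusted p = 0.00582). None of the other 3 tested in that list passed. Of 6 other importin alphas, 5 were tested and KPNA3 rose (1.00 ± 0.30, adjusted p = 0.0233), a call lost with the score as a term (0.97, adjusted p = 0.0513) and when every gene above 0 was tested (adjusted p = 0.0571). Its median was 37.3 TPM, and KPNA4 was the highest of the list at 58.2 TPM, below KPNA2. Of 10 other import receptors, led by IPO5 at 415 TPM, all tested, and of 6 other export receptors, of which 5 were tested, led by the tRNA exporter XPOT at 226 TPM, none passed. Of 5 RAN-dependent spindle factors, led by NUSAP1 at 346 TPM, none passed. TPX2, the spindle factor released from importin alpha by RAN-GTP, had a difference of 0.61 ± 0.22 (adjusted p = 0.0569) and a rho of 0.46 with the score. It is named although it neither passed nor led its list. The rho with the score was 0.33 for NUSAP1, -0.01 for HMMR, -0.02 for KIFC1 and -0.16 for NUMA1. NUMA1 stood at 0.75-fold in later against first cells. No gene of these lists passed in the score or copy-state tests. Spliced KPNA7 was listed at 0 in every cell.

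Across cells the 9 genes moved together only in part. The median Spearman's rho over their 36 pairs was 0.07 with the set mean removed, against 0.01 over all pairs of the 8914 genes, and 25 of the 36 pairs were above 0 (52.6% of all pairs were). The pairs share cells, libraries and depth, and are given as a description. The closest pair was RANBP1 and CSE1L, with rho 0.50 with the set mean removed, 0.61 in later cells and 0.41 in first cells. KPNA2 followed with TNPO1 and CSE1L (0.30 each), then RAN with KPNA2 (0.28). RAN and RANBP1 had rho 0.47 over all cells but 0.20 once the set mean was removed. With the set mean removed, XPO1 and KPNB1 had no partner beyond 0.17 in size. Over all cells XPO1 had -0.30 with RAN, and with KPNA2 it had 0.40 in later and -0.37 in first cells.

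KPNA2 and CSE1L also moved with mitotic genes. Against the mean of 54 G2/M genes, a standard list for scoring cell-cycle phase, KPNA2 had rho 0.53 and CSE1L 0.51 with the set mean removed. RANBP1 had 0.29, RAN 0.27 and TNPO1 0.25. RANGAP1, itself on that list and left out of its own comparison, had -0.09. With the mean of 43 S genes, KPNA2 had 0.01, CSE1L and RAN 0.24 each and RANBP1 0.32. The G2/M mean itself had a rho of 0.41 with the replication score, and the S mean -0.37. These coefficients were not compared with those of all genes and are given as a description.

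**Figure D5:**
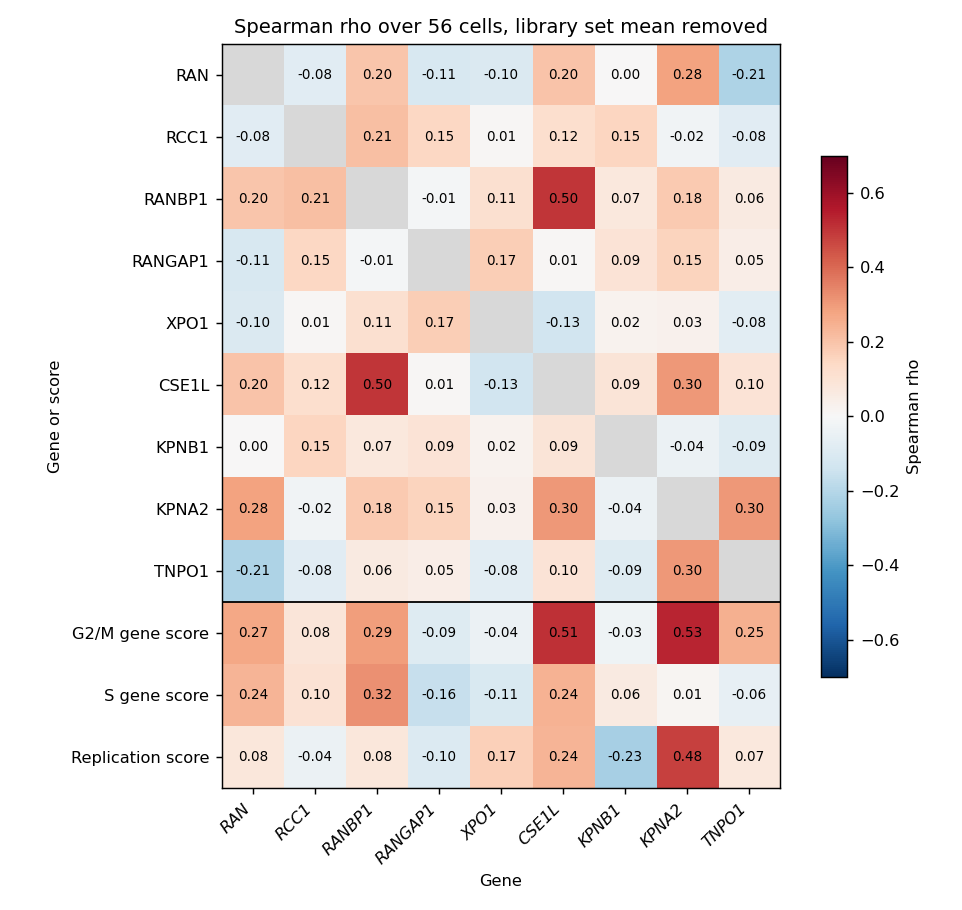
Spearman's rho over 56 cells between the 9 genes, and of each gene with the G2/M gene score, the S gene score and the replication score, after the mean of each library set was removed; red is positive, blue negative and the diagonal is grey. RANBP1 with CSE1L (0.50) and KPNA2 and CSE1L with the G2/M score (0.53 and 0.51) are the strongest squares, and XPO1 and KPNB1 stay pale.

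The genes most like RAN over the 56 cells, among 8913 others with a median of at least 10 TPM, were TAF9B, a transcription initiation factor subunit (rho 0.65 with the set mean removed), CHMP4B, an ESCRT-III subunit (0.58), and PRKAR1A, a regulatory subunit of protein kinase A (0.51). ATP5F1A, THAP5, CNBP, HNRNPM, PTMA, SOD1 and BCL10 followed between 0.50 and 0.48. PTMA, prothymosin alpha, had about the same median as RAN, 1645 TPM. KPNA2 was closest to PCBP1 (0.62), OXSR1 (0.53) and TOP2A, the mitotic topoisomerase (0.52). CSE1L was closest to HNRNPC (0.62) and MRPL22 (0.62), and RANBP1 to PPA1 (0.67) and CAPRIN1 (0.59). The closest genes were DNAJB6 for RCC1 (0.51), TMUB1 for RANGAP1 (0.48), KBTBD2 for KPNB1 (0.49) and ITSN2 for TNPO1 (0.49). XPO1 had the weakest best match of the 9, RP11-527D7.1 at 0.45. Each of these was picked from 8913 coefficients, so its size is partly set by that choice.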

How the data were processed

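Single mid-S HAP1 cells were lysed, DNA was held on beads and RNA was taken from the supernatant, which the study describes as mainly cytoplasmic. Per the paper's methods, the authors aligned DNA to hg38 with BWA, called 40-kb bins with AneuFinder and deposited a state score per bin and per gene (1 for 2 copies, -1 for 1 copy, 0 for no call). RNA was quantified with the ramdaq pipeline on GENCODE v38. The authors deposited TPM per gene, equal to the spliced table for all 45404 genes they share, and estimated counts of unspliced RNA (gene-body minus exon reads, negative values set to 0), which were rounded for edgeR. The length that divided TPM is not stated, and the length column equals the gene span for all 60708 genes. No depth survives in TPM, and its precision is known only from the spread between cells.

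The replication score was computed from the bins of each cell. Copy states were compared in cells scored 40 to 70% with a two-sided Wilcoxon rank-sum test per gene, for genes above 0 in over 50% of cells, called in at least 50%, with neither state in over 80% of called cells. Single genes within a library set were compared with an exact permutation test. Progression used mgcv 1.9.3 on log10(TPM + 1) for genes at 1 TPM or more in at least 20% of cells. Library sets and the interaction used limma 3.58.1 on log2(TPM + 1), and unspliced counts edgeR 4.0.16 with TMM and filterByExpr. Slopes with errors are from limma for spliced RNA and from edgeR for unspliced RNA. The edgeR errors were derived from the effect and its F statistic. A pseudocount of 1 understates changes of low genes. Adjusted p-values are by Benjamini-Hochberg over every gene tested, with a threshold of 0.05. Exact permutation p-values and those named unadjusted were not adjusted. The 95% intervals are normal intervals from the SE. Alternatives included DESeq2 1.42.0 size factors. The tests were checked before use on the real values, shuffled over cells for each gene separately, with 200 genes changed. Such shuffling removes the relations between genes, and the outcome of the check is not reported here.

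Named were all 9 genes. From 5 lists of other transport and spindle genes came those past the threshold, at most 3 per list and direction, and the highest of each list. By likeness came the 10 genes closest to RAN and 3 closest to each other gene by Spearman's rho, of which the text gives only the first or the first few for some and some are not reported here, and overlapping and pseudogene rows. Some further genes of these lists, such as RANBP2 and TPX2, are named outside this rule. The genes, lists and tests were chosen with earlier results of these data known.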

Additional observations from a re-analysis of the deposited data

Results flagged for a closer look

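Among the 8 later cells with RAN at 2 copies, the highest stood at 3086 TPM, apart from the next cell at 2354 TPM by more of the group's range than the 95% limit for 8 values allows. About 1 in 20 groups is singled out in this way by chance, and 4 such groups of RAN and TNPO1 were looked at.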

How the results depend on the processing

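No paired analysis was possible because the shared replicate numbers join the DNA and RNA libraries of 1 cell. That join gives each RNA value its copy state and score, and it pairs no cell with another. Only the spliced comparison of library sets called any of the 9 genes, 3 as reported, 3 with a pseudocount of 0.1 and 2 under each of the other 3 alternatives. These were not always the same calls: with TPM rescaled without mitochondrial genes, the 2 were RAN as higher and XPO1 as lower in later cells. The other comparisons called 0, which says nothing of stability, and departed from it under 2 alternatives. With the 2 cells most distant from the median score dropped, 1 gene passed for progression in spliced RNA (KPNA2, slope 0.51, adjusted p = 0.0227) instead of 0, the slope of RCC1 turned to 0.016, and unspliced RANBP1 and RANGAP1 turned to 0.15 and 0.084. With no filter on low counts, 1 gene passed between sets in unspliced RNA instead of 0: RAN, which has a count in 1 cell. Values of single genes kept direction and side of the threshold in 163 of 186 cases. Many alternatives changed only the genes tested, the test or the scaling behind the p-value and repeated the same difference or slope. Their direction could not turn, so this count does not measure stability. None of the reversed values was called. In the first set alone, chosen after seeing the data, the copy-state differences of RAN and TNPO1 were -0.024 and -0.086, and TNPO1 on score residuals had -0.0089. With the library set as a term, slopes turned to 0.034 for XPO1, and in unspliced RNA to 0.065 for RANBP1, 0.092 for RANGAP1, 0.030 for KPNB1 and 0.20 for TNPO1. With DESeq2 size factors, unspliced RANBP1 and RANGAP1 had slopes of 0.020 and 0.00025. With the score as a term, set differences turned to 0.067 for KPNB1 and -0.10 for KPNA2, CSE1L was no longer called (adjusted p = 0.126), nor was KPNA3 (0.0513). The cause of these changes was not tested. Testing every gene above 0 in any cell, 35981 instead of 13542, left the differences of CSE1L (0.53) and KPNA3 (1.00) as they were. Their calls ended (adjusted p = 0.0597 and 0.0571, limma). The number of p-values adjusted together and the variance fit shared by all genes both changed, and their parts were not tested.

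Counts over all genes moved further. For progression, spliced calls were 7 as reported, 2 with the set as a term, 4 with limma and 39 over every gene above 0. Unspliced calls were 7, 16 with the set as a term and 2219 with no filter. Between sets, 1479 spliced genes were called, or 923 over every gene above 0, and 198 unspliced genes, or 3984 with no filter. The split between later and first cells was 813 higher and 666 lower, and 532 higher and 867 lower with TPM rescaled without mitochondrial genes. Unspliced RAN, XPO1 and KPNA2 were mostly listed at 0 and could not be compared. The parts of depth and of exon cover in this were not tested.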
